A study of Mus musculus with 22 samples.

Results

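The comparison described here sets the advanced-stage change in hepatocyte chromatin on one fatty liver diet against the same change on another. For every accessible site the change from control to advanced disease was taken on the FPC diet and on the CDAHFD, and the second change was subtracted from the first. Of the 22 ATAC-seq libraries of the series, 14 enter this contrast: 4 FPC control, 3 FPC advanced, 4 CDAHFD control and 3 CDAHFD advanced libraries. All 68827 peaks were tested.

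All libraries came from livers of male HEP-INTACT mice, in which hepatocyte nuclei carry a tag that lets them be pulled out of the liver on beads. The labels state neither the promoter or Cre line that drives the tag nor the age of the mice. FPC mice ate that diet for 20 weeks and CDAHFD mice theirs for 7 weeks, while controls of each diet received low fat food over the matching period. The submitters sorted diet-fed mice into mild and advanced groups by histology. Both groups had fat and inflammation, and the advanced one also had marked fibrosis. Diet, feeding time and mouse cohort change together between the 2 arms, so their parts in any value below cannot be told apart. Each library title carries a different number, but nothing else in the labels states that the libraries are separate mice, so p-values measure the spread between libraries.

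Library totals were 3785115 to 6038914 counts for FPC controls, 5971479 to 7135618 for FPC advanced, 5952295 to 8385011 for CDAHFD controls and 6076044 to 9236890 for CDAHFD advanced. The shallowest libraries were thus FPC controls. Peaks lay near all 6 hepatocyte genes checked, Alb (16 peaks), Apoa1 (18), Ttr (11), Serpina1a (10), Hnf4a (11) and Cebpa (22), and of these Ttr alone passed the test of the difference between diets (0.28, adjusted p = 0.037). Of 20 stellate cell markers 15 had no peak, among them Acta2, Col1a2, Col3a1, Des, Pdgfrb and Lrat. Of 20 macrophage markers 15 had none, among them Cd68, Clec4f and Lyz2. Markers of other cells did have peaks: 15 of 20 endothelial, 14 of 16 cholangiocyte and 6 of 20 lymphocyte markers.

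The FPC diet is rich in fructose, palmitate and cholesterol, whereas CDAHFD is a high-fat diet that lacks choline and limits methionine. Sugar and insulin drive fat synthesis in hepatocytes through SREBP-1c and ChREBP, factors that open and activate genes such as Scd1, Fasn and Pnpla3. A related factor, SREBP-2, serves cholesterol synthesis and is held back when cells are loaded with cholesterol. Without choline, hepatocytes cannot make enough phosphatidylcholine to export fat, and phospholipid shortage is known to act on SREBP processing and on the endoplasmic reticulum. ATAC-seq counts transposase cuts in open chromatin. It measures access to DNA near a gene, not the gene's expression, and in bulk nuclei fewer open cells and less opening per cell cannot be told apart.

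Promoter sequences are shown for 4 genes whose accessibility differed between diets, because 2 short elements tied to the pathways above could be read in them. They are RefSeq sequences of GRCm38.p6, the assembly also called mm10. Capitals mark the ER stress response element (CCAAT, then 9 bases of any kind, then CCACG, on either strand) in Hspa5 (chr2:34771995-34772073, plus strand), Derl3 (chr10:75893212-75893290, plus strand) and Hsp90b1 (chr10:86705608-86705686 and chr10:86705503-86705581, minus strand). In Hmgcs1 (chr13:119690184-119690252, plus strand) they mark the sterol response element (TCACNCCAC). The 250 bases before the starts of Msmo1, Fasn and Pnpla5, searched in the same way, held no sterol response element.
Hspa5: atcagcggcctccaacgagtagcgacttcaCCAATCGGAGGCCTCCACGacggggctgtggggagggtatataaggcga
Derl3: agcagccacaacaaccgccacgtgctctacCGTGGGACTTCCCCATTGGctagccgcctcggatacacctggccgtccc
Hsp90b1 distal match: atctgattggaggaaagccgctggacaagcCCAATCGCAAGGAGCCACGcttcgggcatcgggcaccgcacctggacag
Hsp90b1 proximal match: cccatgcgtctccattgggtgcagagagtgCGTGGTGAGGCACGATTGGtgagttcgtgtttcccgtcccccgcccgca
Hmgcs1: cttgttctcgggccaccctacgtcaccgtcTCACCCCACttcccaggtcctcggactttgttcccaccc
The 250 bases before the start of Pnpla3 (chr15:84167566-84167815, plus strand), whose promoter peak differed in the other direction, hold the KLF and SP motif GGGCGGGG at the places in capitals. This motif is not particular to that direction. Its reverse complement lies 94 bases before the Hmgcs1 start and, unmarked, in the Hsp90b1 proximal stretch printed above.
Pnpla3: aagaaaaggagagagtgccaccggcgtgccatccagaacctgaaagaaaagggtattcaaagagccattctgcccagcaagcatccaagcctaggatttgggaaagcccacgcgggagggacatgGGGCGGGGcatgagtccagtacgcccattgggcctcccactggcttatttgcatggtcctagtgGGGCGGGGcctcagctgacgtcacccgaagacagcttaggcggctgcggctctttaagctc
The same stretch of Gsta2 (chr9:78347146-78347395, minus strand), the promoter with one of the largest differences, held no match to any motif searched.
Gsta2: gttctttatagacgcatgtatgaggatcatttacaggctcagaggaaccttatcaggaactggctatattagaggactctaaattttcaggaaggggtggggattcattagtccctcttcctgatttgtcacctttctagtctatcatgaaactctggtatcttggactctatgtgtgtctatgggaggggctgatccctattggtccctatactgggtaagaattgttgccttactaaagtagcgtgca

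Most of the advanced-stage change was shared in size and direction, and the difference between diets passed the test at few sites. On FPC, 27.6% of peaks rose and 28% fell from control to advanced, and on CDAHFD 26.7% rose and 28.8% fell (edgeR quasi-likelihood test, Benjamini-Hochberg adjusted p under 0.05, which is what called, rose and fell mean below). The change was more positive on FPC at 475 peaks (0.69% of those tested) and more positive on CDAHFD at 626 (0.91%), 1101 in all (1.6%). At an unadjusted p under 0.05 there were 10924. The SD across peaks was 1.05 (log2) for the FPC change, 1.14 for the CDAHFD change and 0.468 for their difference. Across peaks the 2 changes, which share no library, correlated at r = 0.912, given as a description since peaks are not replicates. For 90% of peaks the difference was under 0.710. Among called peaks the median difference was 1.12 on the FPC side and -1.10 on the CDAHFD side, and 274 and 350 of them differed by more than 2-fold.

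**Figure D1:**
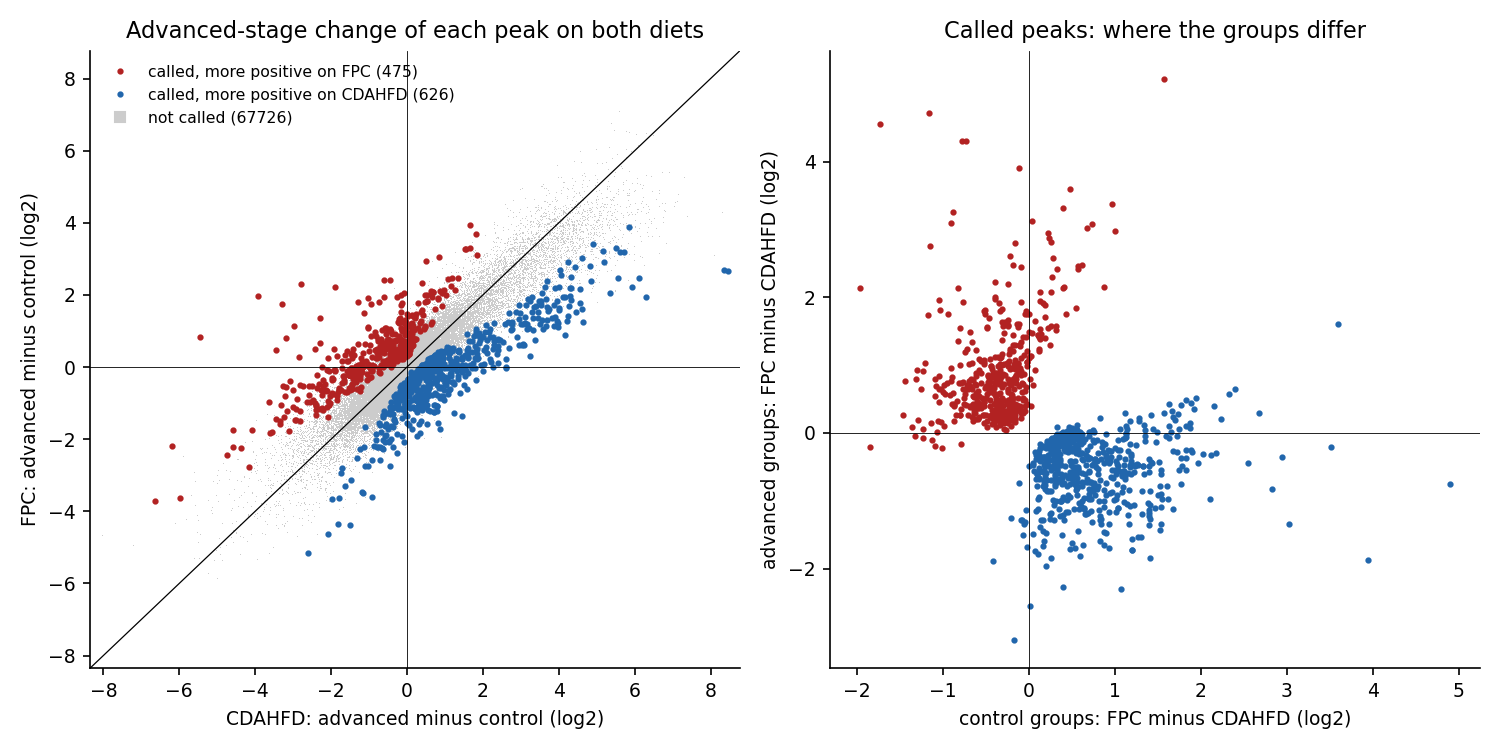
Left, the change from control to advanced (log2) of each of 68827 peaks on CDAHFD (x axis) and FPC (y axis), with the diagonal of equal change and called peaks in colour. Right, for called peaks, the FPC minus CDAHFD difference between control groups (x axis) and between advanced groups (y axis). Most peaks lie along the diagonal, and the called ones leave it on both sides.

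The direction of change itself was opposite at a minority of called peaks. Of the 475 peaks, 159 rose on FPC alone, 127 fell on CDAHFD alone, 77 rose on FPC and fell on CDAHFD, 73 fell on both and 39 rose on both. Of the 626 peaks, 202 rose on CDAHFD alone, 172 rose on both, 130 fell on FPC alone, 64 fell on both and 58 fell on FPC while rising on CDAHFD. Sites that opened on both diets but further on CDAHFD were therefore more numerous (172) than sites that opened on both but further on FPC (39). Leaving out 1 library gave 39 to 79 peaks in place of 77 and 33 to 68 in place of 58. The 77 became 45 without FPC control replicate 3, 48 and 40 without FPC advanced replicates 1 and 3, and 39 and 45 without CDAHFD advanced replicates 1 and 3. The 58 became 33 without FPC control replicate 2, 35 without FPC advanced replicate 3, 38 without CDAHFD control replicate 3 and 34 without CDAHFD advanced replicate 3.

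A difference between changes can come from the advanced livers or from the controls, and the 2 directions differed in this. Over all peaks the advanced groups differed at 2.38% (higher on FPC) and 1.48% (lower), and the control groups at 2.05% (higher on FPC) and 0.661% (lower). Of the 475 peaks more positive on FPC, 275 were higher in FPC advanced than in CDAHFD advanced livers, and 112 were lower in FPC controls than in CDAHFD controls. Of the 626 peaks more positive on CDAHFD, 204 were lower in FPC advanced livers, whereas 323 were higher in FPC controls than in CDAHFD controls. These group differences share libraries with the contrast they divide, so they describe it and do not test it again. The low fat controls of the 2 arms thus differed at 51.6% of the CDAHFD-side peaks. When 1 library was left out, the totals fell as well. Without FPC control replicate 1, FPC advanced replicate 3, CDAHFD control replicate 3 or CDAHFD advanced replicates 2 or 3 the 323 of 626 became 203 of 455, 196 of 338, 183 of 363, 215 of 446 and 209 of 392. Without FPC control replicate 3, FPC advanced replicates 1 or 3 or CDAHFD advanced replicates 1 or 3 the 275 of 475 became 158 of 246, 158 of 298, 134 of 244, 106 of 214 and 146 of 263. Without FPC control replicate 3, FPC advanced replicate 3, CDAHFD control replicate 3 or CDAHFD advanced replicates 1 or 3 the 112 of 475 became 46 of 246, 61 of 244, 63 of 330, 59 of 214 and 66 of 263. In the same order the 204 of 626 became 121 of 400, 79 of 338, 123 of 363, 102 of 462 and 121 of 392.

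The number of called peaks depended on single libraries. Leaving out one library at a time gave 214 to 603 peaks on the FPC side and 338 to 748 on the CDAHFD side. The 475 became 246 without FPC control replicate 3, 298 without FPC advanced replicate 1, 244 without FPC advanced replicate 3, 214 without CDAHFD advanced replicate 1 and 263 without CDAHFD advanced replicate 3. The 626 became 400 without FPC control replicate 3, 338 without FPC advanced replicate 3, 363 without CDAHFD control replicate 3 and 392 without CDAHFD advanced replicate 3.

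To read the difference by gene, every peak was assigned to the gene with the nearest start if that was at most 50 kb away, and the counts of each gene's peaks were added, which gave 15686 genes. The change was more positive on FPC near 312 genes (1.99%) and more positive on CDAHFD near 441 (2.81%). At an unadjusted p under 0.05 there were 3361. The median difference was 0.58 for the called genes on the FPC side and -0.44 on the CDAHFD side. On FPC 30.7% of genes rose and 30.5% fell, and on CDAHFD 28.5% rose and 30% fell. The advanced groups differed near 4.17% (higher on FPC) and 3.1% (lower) of genes, and the control groups near 3.67% and 2.35%. Without FPC control replicate 3, FPC advanced replicate 3, CDAHFD advanced replicate 1 or CDAHFD advanced replicate 3 the 312 genes became 182, 203, 179 and 187, and without CDAHFD advanced replicate 3 the 441 became 266.

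Called genes of the fatty acid synthesis list were all on the FPC side. Of the 19 measured genes of this list, 4 were called on the FPC side (Scd1, Pnpla3, Acaca and Fasn) and none on the CDAHFD side. The list includes Pnpla3, whose product acts on lipid droplets and does not itself build fatty acids. The 4 are 21.1% of the list, against 1.99% of all genes. Of the 19 differences 16 were positive, with a median of 0.22, against a median of 0.006 over all genes. On CDAHFD 14 of the 19 fell and 2 rose, and on FPC 5 fell and 4 rose. Among advanced livers 8 of the 19 were higher on FPC and none lower, and among controls 2 were lower on FPC and none higher. Without CDAHFD advanced replicate 1 the 4 calls became 2.

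Scd1 encodes the desaturase that turns stearate into oleate. The sum over its 16 peaks was 315, 303, 276 and 312 CPM (counts scaled to a common library total) in FPC controls, 433, 299 and 397 in FPC advanced, 234, 188, 286 and 316 in CDAHFD controls and 134, 169 and 133 in CDAHFD advanced livers. Of the 14 control and advanced libraries, to which such statements refer throughout, the 3 CDAHFD advanced ones lay under all others, while FPC advanced replicate 2 stayed within the FPC controls. The change was 0.32 on FPC and -0.82 on CDAHFD, a difference of 1.14 ± 0.196 (log2, SE, adjusted p = 0.0017).

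The Scd1 promoter peak (chr19:44407529-44407729) showed this more sharply. It held 28.8, 20.1, 21.4 and 23.3 CPM in FPC controls, 38.3, 19.7 and 27.7 in FPC advanced, 12.4, 10.9, 15.9 and 28.9 in CDAHFD controls and 1.92, 2.67 and 2.56 CPM in CDAHFD advanced livers. On CDAHFD this peak was close to shut in every advanced library, below each of the other libraries by a wide margin. The difference was 3.12 ± 0.434 (adjusted p = 0.00031), made of a change of -2.84 on CDAHFD and 0.28 on FPC, where the change did not pass the test. An overlapping peak (chr19:44407366-44407566) fell less on CDAHFD, by 1.54, and kept 3.85, 7.01 and 3.98 CPM in CDAHFD advanced livers. Its difference was 1.34 ± 0.292 (adjusted p = 0.018).

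Around Scd1 the difference extended over a run of neighbouring sites. From chr19:44314458-44422271, 13 of 19 peaks were called, with differences of 0.80 to 3.65, near Scd1, its paralogue Scd4 and Mir5114. A site 11991 bases upstream of the Scd1 start (chr19:44419600-44419800) held 5.33, 3.98, 4.03 and 3.29 CPM in FPC controls, 15.7, 9.83 and 18.6 in FPC advanced, 3.67, 2.99, 4.04 and 5.77 in CDAHFD controls and 1.6, 2.67 and 0.854 CPM in CDAHFD advanced livers. There FPC advanced libraries exceeded, and CDAHFD advanced libraries fell short of, all controls. The Scd genes are near-identical copies in places, and how reads that fit several places were treated is not given in the sources used here. Of this run, the 13 called peaks became 9 without FPC control replicate 3, 8 without FPC advanced replicate 1, 9 without FPC advanced replicate 3, 9 without CDAHFD advanced replicate 1 and 8 without CDAHFD advanced replicate 3.

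The largest gene difference among well-covered genes was that of Pnpla5, a lipase gene related to Pnpla3. Its 9 peaks, all of them called, summed to 92.2, 58.3, 35.1 and 39.1 CPM in FPC controls, 159.8, 84.5 and 144 in FPC advanced, 102, 105, 80.8 and 74 in CDAHFD controls and 22.9, 30.8 and 25.1 CPM in CDAHFD advanced livers. FPC advanced replicate 2 lay within the range of the FPC controls, and the CDAHFD advanced libraries lay below every control. The difference was 3.02 ± 0.324 (adjusted p = 1.3e-05), from 1.22 on FPC and -1.80 on CDAHFD. The control groups already differed by -0.71 (FPC minus CDAHFD, adjusted p = 0.045).

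Pnpla5 sits in a stretch of called sites that runs from Efcab6 through Sult4a1 to Pnpla3 (chr15:84079898-84168727), where 16 of 17 peaks were called with differences of 0.93 to 5.89. Leaving out any one library left 15 or 16 of them called. The named peak with the smallest p of the whole contrast was in intron 7 of a gene there (chr15:84113984-84114184, nearest start Sult4a1, 8330 bases away). It held 17.2, 18.6, 11.8 and 7.84 CPM in FPC controls, 33.4, 20.5 and 37.9 in FPC advanced, 28.5, 26.3, 25.4 and 20.9 in CDAHFD controls and 2.78, 4.17 and 2.85 CPM in CDAHFD advanced livers. All FPC advanced libraries were above, and all CDAHFD advanced libraries below, their own controls. The difference was 4.13 ± 0.321 (adjusted p = 3.6e-08). Here too the control groups differed, by -0.89 (FPC minus CDAHFD, adjusted p = 0.0094).

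**Figure D2:**
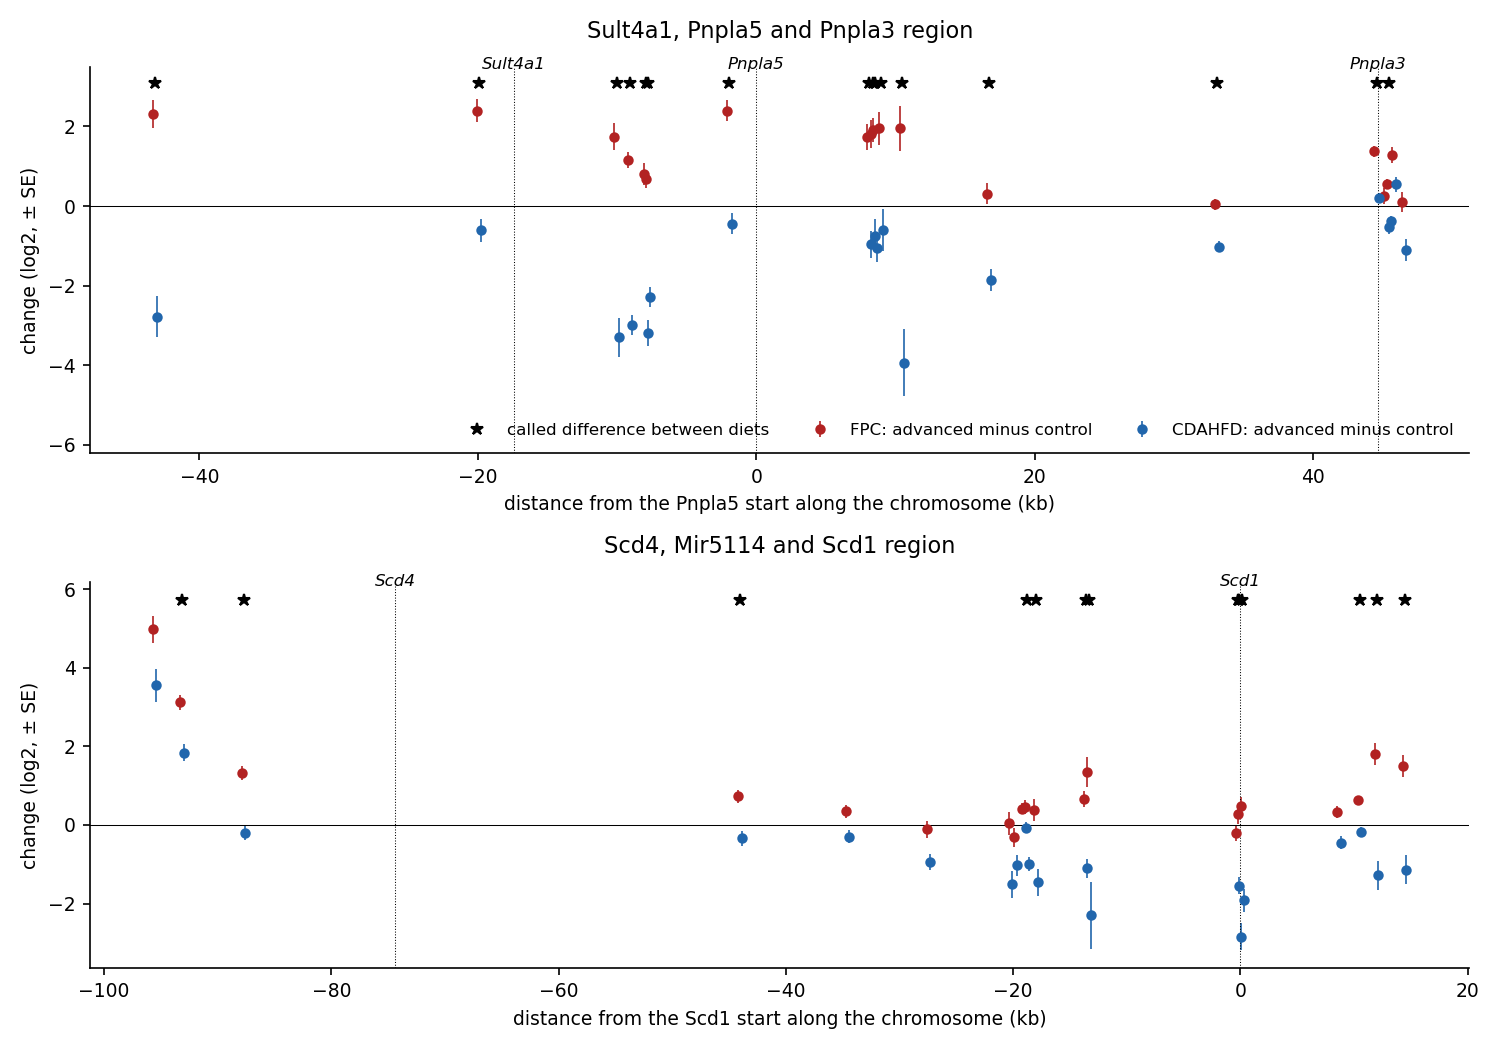
Change from control to advanced (log2, ± SE) of each peak along the Pnpla5 region (top) and the Scd1 region (bottom), by distance in kb from the start of that gene, FPC in red and CDAHFD in blue. Stars mark called differences, 16 in the upper and 13 in the lower panel, and dotted lines mark gene starts. The red points lie above the blue ones at the starred sites.

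Pnpla3, whose product acts on lipid droplets and whose human variants raise the risk of fatty liver, stands at the end of this stretch. Its 2 peaks summed to 61.1, 57.7, 46.5 and 45.4 CPM in FPC controls, 76.6, 76.7 and 78.8 in FPC advanced, 68.1, 83, 64.3 and 74.2 in CDAHFD controls and 47.5, 51.4 and 58.5 CPM in CDAHFD advanced livers. FPC advanced libraries were above and CDAHFD advanced libraries below their controls, with no overlap on either diet. The difference was 1.03 ± 0.143 (adjusted p = 0.00022). Part of it lay in the control groups, which differed by -0.46 (FPC minus CDAHFD, adjusted p = 0.0057). The promoter peak that overlaps the sequence shown above (chr15:84167640-84167840) rose by 1.37 on FPC and changed by 0.20 on CDAHFD, which did not pass the test, a difference of 1.17 ± 0.177 (adjusted p = 0.00074). At that peak, FPC minus CDAHFD was -0.64 between the control groups (adjusted p = 0.0054) and 0.53 between the advanced groups (0.014).

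Both enzymes that build fatty acids fell on CDAHFD. Fasn, the fatty acid synthase, held 211, 249, 194 and 239 CPM in FPC controls, 235, 152 and 203 in FPC advanced, 220.0, 197, 242 and 232 in CDAHFD controls and 109.5, 145 and 117 CPM in CDAHFD advanced livers. Acaca, which makes malonyl-CoA, held 66.3, 76.7, 50.5 and 66.3 CPM, then 69.8, 56.2 and 60.3, against 83.7, 78.2, 90.4 and 96.1 CPM and then 45.5, 59.2 and 48.5 CPM in the same order of groups. For both genes the CDAHFD advanced libraries lay below all CDAHFD controls, and the FPC groups overlapped. The Acaca controls already stood apart, lower on FPC by 0.44 (log2, adjusted p = 0.019) without overlap, while its advanced groups overlapped. The difference was 0.68 ± 0.162 for Fasn (adjusted p = 0.018) and 0.73 ± 0.17 for Acaca (adjusted p = 0.015). The Fasn call ended without FPC advanced replicate 1 (adjusted p = 0.056), CDAHFD advanced replicate 1 (0.06) or CDAHFD advanced replicate 3 (0.05), and the Acaca call without CDAHFD advanced replicate 1 (0.051).

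**Figure D3:**
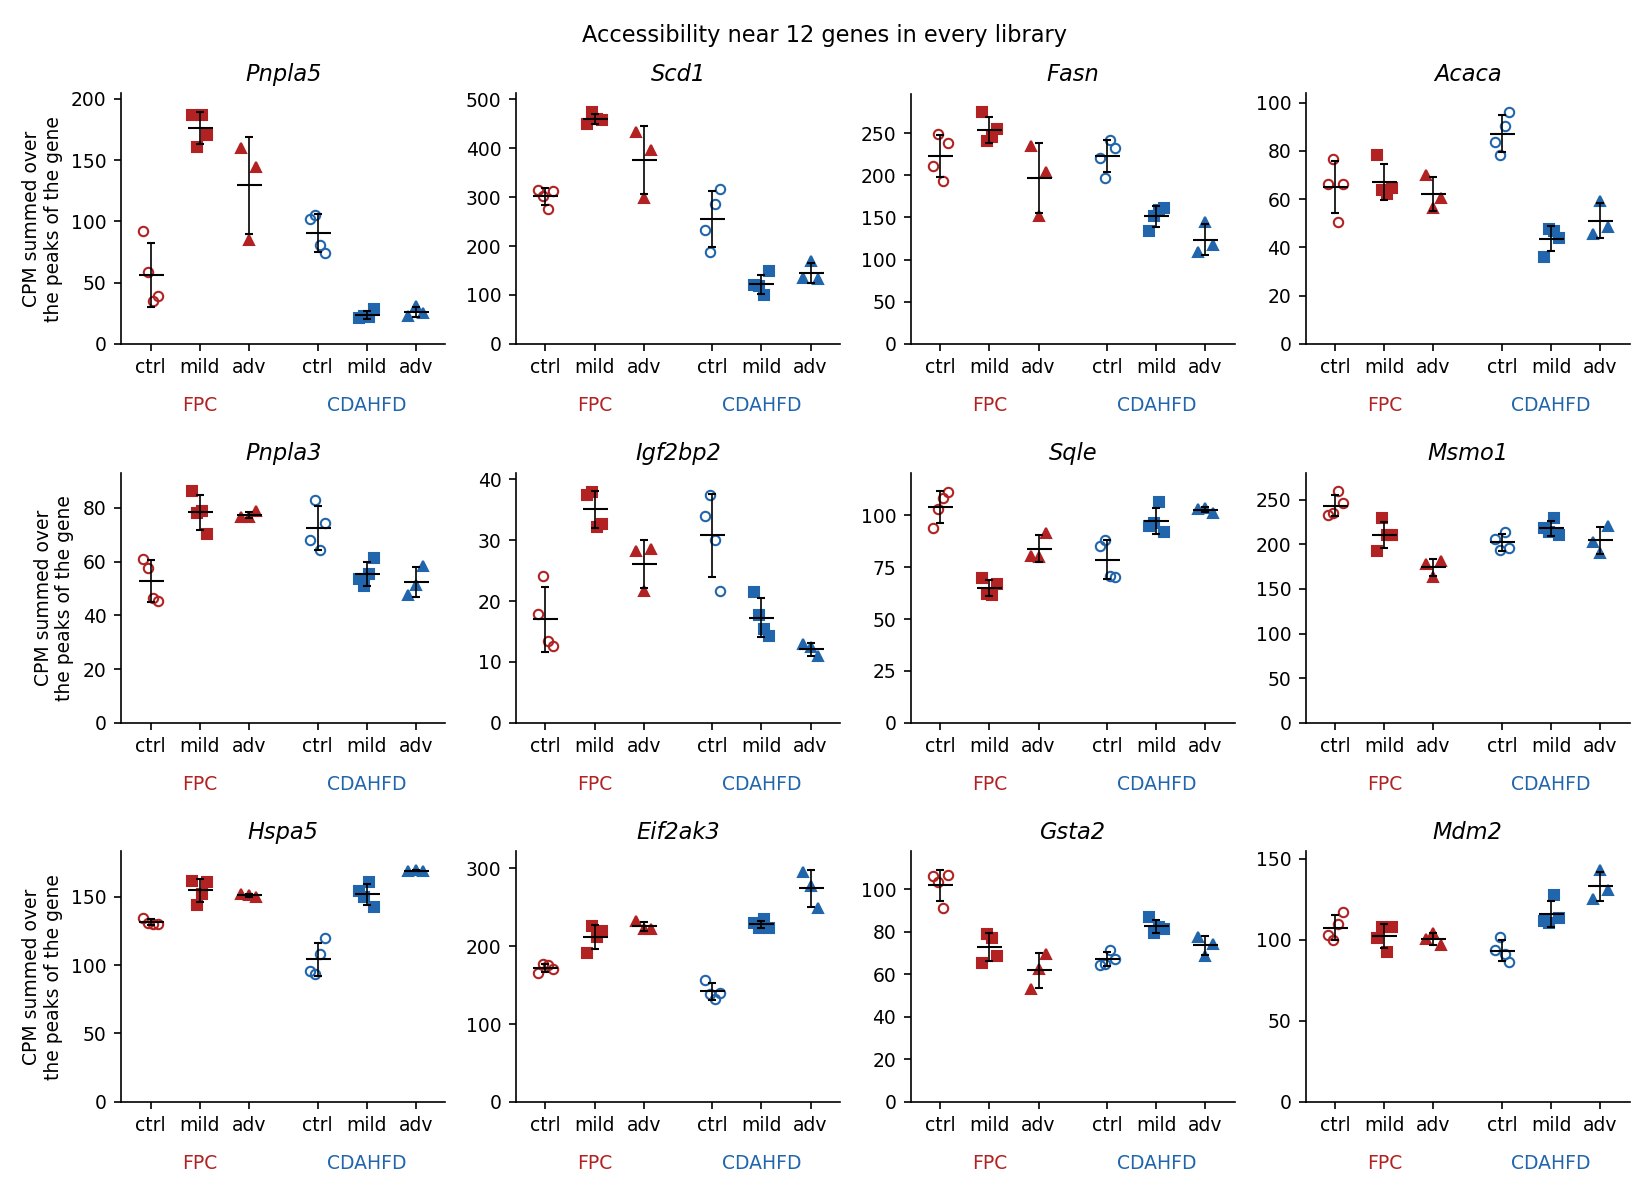
Accessibility in CPM, summed over the peaks of each of 12 genes, in every library of the 6 groups (ctrl, mild and adv for control, mild and advanced), with the mean and SD as a bar, FPC in red and CDAHFD in blue. Scd1, Fasn, Acaca and Pnpla5 have their lowest means in the CDAHFD mild and advanced groups, and Hspa5, Eif2ak3 and Mdm2 their highest in the CDAHFD advanced group.

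The mild livers, which share the controls with the advanced ones, are given only side by side. The difference between diets of the mild change was called at 1269 peaks (1.84%) on the FPC side and 1122 (1.63%) on the CDAHFD side. It was 3.60 for Pnpla5 against 3.02 in advanced livers, 1.68 against 1.14 for Scd1, 0.75 against 0.68 for Fasn, 1.06 against 0.73 for Acaca and 0.96 against 1.03 for Pnpla3. Pnpla5 levels averaged 176 ± 13.1 CPM (SD, n = 4) in FPC mild and 129.5 ± 39.8 CPM (SD, n = 3) in FPC advanced livers.

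Other genes on the FPC side included regulators outside fat synthesis. Igf2bp2, an RNA-binding protein gene of growth control, held 17.9, 24.1, 13.4 and 12.6 CPM in FPC controls, 28.2, 21.6 and 28.6 in FPC advanced, 34, 37.5, 30.1 and 21.7 in CDAHFD controls and 12.9, 12.4 and 10.9 CPM in CDAHFD advanced livers. FPC advanced replicate 2 lay within its controls, and CDAHFD advanced libraries were all under theirs. The difference was 1.99 ± 0.266 (adjusted p = 0.00017), from 0.64 on FPC and -1.35 on CDAHFD. Its relative Igf2bp3 differed by 0.91 ± 0.183 (adjusted p = 0.006), and there the FPC controls had been lower than the CDAHFD controls by 0.72.

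Gramd1b, which encodes a carrier that moves cholesterol from the plasma membrane to the endoplasmic reticulum, opened on both diets and further on FPC. Its promoter peak (chr9:40321494-40321694) held 2.42, 1.59, 2.69 and 3.29 CPM in FPC controls, 34.7, 38.7 and 42.5 in FPC advanced, 4.66, 2.54, 3.21 and 4.07 in CDAHFD controls and 8.76, 13.3 and 12.7 CPM in CDAHFD advanced livers. The advanced groups did not overlap each other or any control. The peak rose by 3.93 on FPC and by 1.66 on CDAHFD, a difference of 2.27 ± 0.342 (adjusted p = 0.00074). The sum over its 9 peaks differed by 1.07 ± 0.15 (adjusted p = 0.00023).

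Among 15 cholesterol efflux and LXR target genes, 1 was called on the FPC side (Nr1h2, the gene of LXR beta itself, 0.46 ± 0.128, adjusted p = 0.037) and none on the CDAHFD side. That call ended without any of 8 of the 14 libraries, FPC control replicates 1, 2 or 4, FPC advanced replicates 2 or 3, CDAHFD control replicate 1 and CDAHFD advanced replicates 2 or 3, with adjusted p of 0.05 to 0.089. The median over the list was 0.01.

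The promoter of Slc30a10, a manganese exporter, closed on both diets and further on CDAHFD. Its peak (chr1:185454799-185454999) held 14.1, 13.5, 13.6 and 17.2 CPM in FPC controls, 7.76, 4.56 and 12.7 in FPC advanced, 18.6, 14.4, 22.1 and 21.7 in CDAHFD controls and 1.92, 1.33 and 2.85 CPM in CDAHFD advanced livers. Each advanced group lay under its controls, and the CDAHFD one was lower than the FPC one throughout. It fell by 0.81 on FPC and by 3.22 on CDAHFD, with a difference of 2.40 ± 0.42 (adjusted p = 0.0034). The Crybg2 promoter (chr4:134067452-134067652) moved in opposite directions, rising by 2.21 on FPC and falling by 1.90 on CDAHFD (difference 4.11 ± 0.52, adjusted p = 8.6e-05), from controls that were lower on FPC by 1.97.

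**Figure D4:**
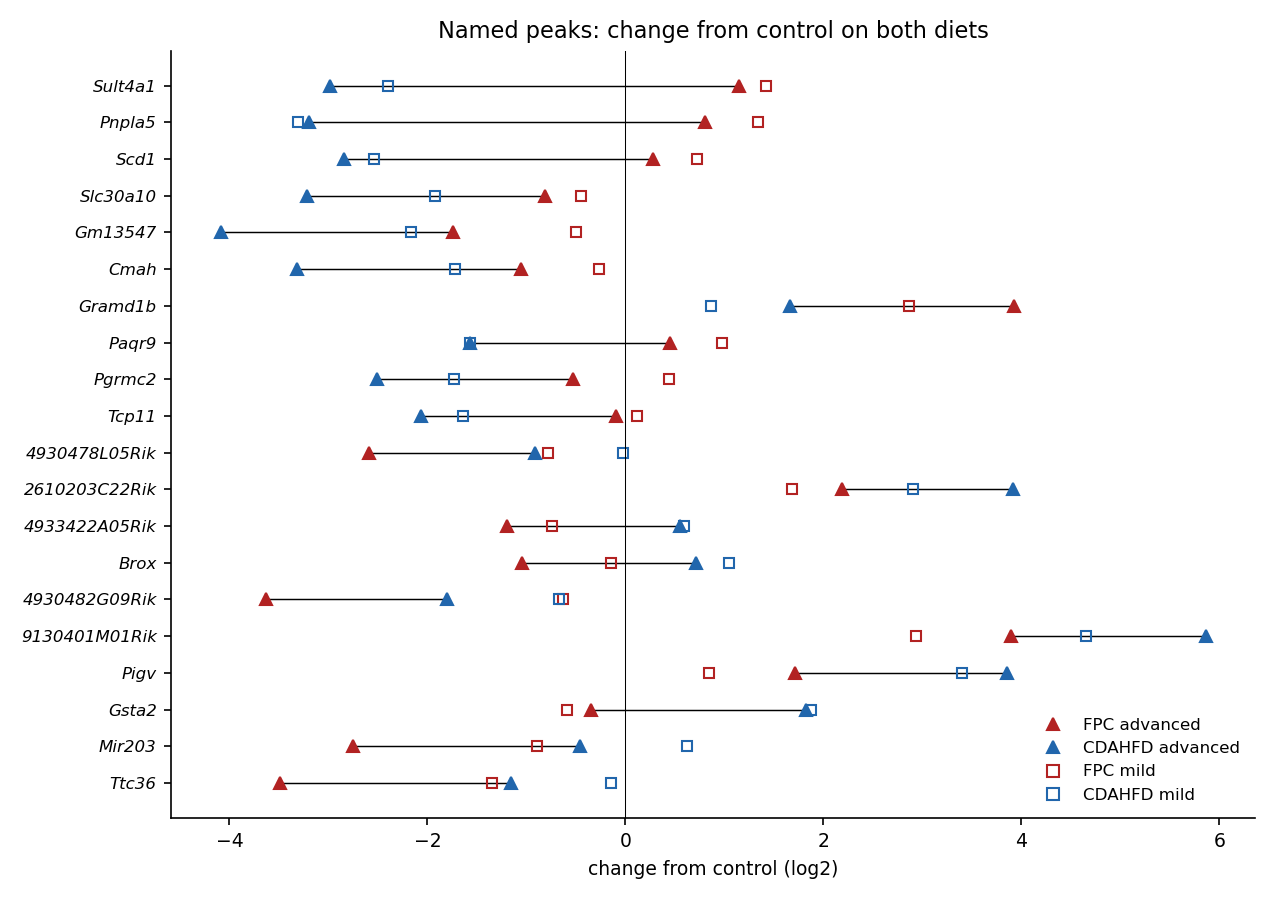
Change from control (log2) of the 10 peaks with the largest difference on each side, advanced as filled triangles and mild as open squares, FPC in red and CDAHFD in blue. A line joins the 2 advanced changes of each peak. The Sult4a1 and Pnpla5 peaks cross 0, whereas Ttc36 and 4930482G09Rik fell on both diets and further on FPC.

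Called genes of cholesterol synthesis were all on the other side. Of 20 measured sterol synthesis genes, none was called on the FPC side and 6 on the CDAHFD side (among them Sqle, Msmo1, Idi1 and Hmgcs1). The 6 are 30% of the list, against 2.81% of all genes. Of the 20 differences 18 were negative, and the median was -0.24. On FPC 14 of the 20 fell and 1 rose, and on CDAHFD 8 fell and 2 rose. Among controls 9 of the 20 were higher on FPC and none lower, and among advanced livers 3 were lower on FPC and none higher. The 6 calls stayed between 4 and 7 when 1 library was left out.

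Msmo1, a demethylating enzyme late in the pathway, held 233, 235, 259.6 and 246 CPM in FPC controls, 178, 163 and 181 in FPC advanced, 206, 193, 213 and 196 in CDAHFD controls and 202, 190.2 and 220.3 CPM in CDAHFD advanced livers. The FPC advanced libraries lay below every other library, and the CDAHFD groups overlapped. The change was -0.49 on FPC and 0.01 on CDAHFD, which did not pass the test, and the difference was -0.50 ± 0.0885 (adjusted p = 0.0021). At its promoter peak (chr8:64733536-64733736) the CDAHFD controls were the low group, with 53.4, 51.5, 54.3 and 55 CPM against 69.7, 71.6 and 78.2 in CDAHFD advanced, 68.3, 70.5, 79.8 and 82 in FPC controls and 61.9, 61 and 64 CPM in FPC advanced livers. The promoter difference was -0.73 ± 0.0916 (adjusted p = 8.6e-05).

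Sqle, the squalene epoxidase gene, held 93.6, 103, 108 and 111 CPM in FPC controls, 80.2, 80.0 and 91.6 in FPC advanced, 85.3, 88.1, 70.7 and 70.4 in CDAHFD controls and 103, 103 and 101 CPM in CDAHFD advanced livers. The advanced groups moved apart in opposite directions, each without overlap with its controls. The difference was -0.70 ± 0.113 (adjusted p = 0.0011), with -0.31 on FPC and 0.38 on CDAHFD. One of its 4 peaks, in an intron (chr15:59338611-59338811), rose on both diets, by 1.94 on FPC and 4.12 on CDAHFD, and its call ended without FPC control replicate 3 (adjusted p = 0.055). With peaks within 1 kb of the start alone the Sqle difference was -0.23 (adjusted p = 0.22).

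The Hmgcs1 promoter had 2 overlapping called peaks. The one that holds the sterol response element shown above (chr13:119690122-119690322) differed by -0.45 ± 0.0777 (adjusted p = 0.0029). The other (chr13:119689987-119690187), which ends before the element, held 75.6, 77.4, 79.8 and 86.3 CPM in FPC controls, 70.5, 68.1 and 69.2 in FPC advanced, 55.6, 55.9, 53 and 54.5 in CDAHFD controls and 70.7, 69.6 and 71.7 CPM in CDAHFD advanced livers. Both advanced groups lay at nearly the same level, between the 2 control groups, which stood 0.54 apart. The difference was -0.57 ± 0.0842 (adjusted p = 0.00059). The gene as a whole differed by -0.29 ± 0.0683 (adjusted p = 0.016), which was not called with cyclic loess scaling (adjusted p = 0.1) or with the 14 control and advanced libraries alone (0.05).

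Idi1, an isoprenoid isomerase, differed by -0.39 ± 0.101 (adjusted p = 0.027). The Idi1 call ended without FPC control replicate 3 (adjusted p = 0.056), FPC advanced replicate 1 (0.064) or 3 (0.06), CDAHFD control replicate 3 (0.053) or CDAHFD advanced replicate 1 (0.086).

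Called genes of the endoplasmic reticulum stress response were all on the CDAHFD side. Of 19 measured members 3 were called on the CDAHFD side (Eif2ak3, Hspa5 and Hsp90b1) and none on the FPC side. The 3 are 15.8% of the list, against 2.81% of all genes. Of the 19 differences 16 were negative, with a median of -0.14. On CDAHFD 11 of the 19 rose and 2 fell, and on FPC 4 rose and 2 fell. Among controls 3 were higher on FPC, and among advanced livers 3 were lower on FPC. The 3 calls became 2 without FPC control replicate 3, FPC advanced replicate 3, CDAHFD advanced replicate 2 or CDAHFD advanced replicate 3, and 5 with peaks within 1 kb of the start alone.

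Hspa5 encodes BiP, the main chaperone of the endoplasmic reticulum. It held 134, 131, 130.4 and 129.9 CPM in FPC controls, 152, 152 and 149.6 in FPC advanced, 95.7, 93.4, 108 and 119.9 in CDAHFD controls and 169, 169.5 and 169 CPM in CDAHFD advanced livers. The order of groups had no overlap at all, from CDAHFD controls through FPC controls and FPC advanced to CDAHFD advanced. Hspa5 rose by 0.20 on FPC and 0.70 on CDAHFD, a difference of -0.50 ± 0.0929 (adjusted p = 0.0032), and its promoter peak (chr2:34771884-34772084) by 0.34 and 0.93 (difference -0.59 ± 0.104, adjusted p = 0.0036).

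Eif2ak3 encodes PERK, a sensor of unfolded proteins. It held 166, 177, 176 and 171 CPM in FPC controls, 233, 222 and 222 in FPC advanced, 157, 138, 133 and 139.6 in CDAHFD controls and 296, 278 and 249 CPM in CDAHFD advanced livers. Both diets opened the gene without overlap, and the CDAHFD advanced libraries were the highest. The difference was -0.57 ± 0.0907 (adjusted p = 0.00097), from 0.39 on FPC and 0.95 on CDAHFD. At the promoter peak (chr6:70844148-70844348) the change was -0.01 on FPC, which did not pass the test, and 0.74 on CDAHFD.

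Hsp90b1, a second chaperone of that compartment, differed by -0.47 ± 0.121 (adjusted p = 0.025). The call ended without FPC control replicate 3 (adjusted p = 0.056), FPC advanced replicate 3 (0.055), CDAHFD advanced replicate 2 (0.054) or CDAHFD advanced replicate 3 (0.064). Its promoter peak (chr10:86705438-86705638) held 52.8, 43.2, 54.1 and 50.8 CPM in FPC controls, 60.7, 65.5 and 62 in FPC advanced, 36.4, 37.7, 36.7 and 31.4 in CDAHFD controls and 58.8, 69.4 and 64.6 CPM in CDAHFD advanced livers. The CDAHFD controls were the low group, and the advanced groups overlapped. The promoter difference was -0.53 ± 0.11 (adjusted p = 0.014).

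Detoxifying and stress-response genes also included members on the CDAHFD side. Of 19 measured NRF2 targets, whose median difference was -0.15, 5 were higher in FPC controls. On the CDAHFD side 2 were called (Gsta2 and Gsta1), or 10.5% against 2.81% of all genes, and none on the FPC side. Both are glutathione transferase genes and near-identical copies, so reads may be divided between them. The Gsta2 promoter peak (chr9:78347112-78347312), which overlaps the sequence printed above, held 22.8, 18, 17.3 and 18 CPM in FPC controls, 11.1, 15.8 and 17.5 in FPC advanced, 4.24, 5.24, 6.89 and 3.56 in CDAHFD controls and 19.4, 16.9 and 17.6 CPM in CDAHFD advanced livers. Only the CDAHFD controls stood apart, below all other libraries. The difference was -2.18 ± 0.245 (adjusted p = 2.4e-05), and the control groups differed by 1.90.

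Of 17 p53 targets, 2 were called on the CDAHFD side, or 11.8% against 2.81% of all genes. Mdm2, the ligase that restrains p53, held 103, 99.6, 109.9 and 117 CPM in FPC controls, 100.5, 104 and 96.9 in FPC advanced, 93.8, 102, 91.4 and 86 in CDAHFD controls and 125, 143 and 131 CPM in CDAHFD advanced livers. CDAHFD advanced libraries were above all others, while the FPC groups overlapped. The difference was -0.60 ± 0.101 (adjusted p = 0.0013), from -0.10 on FPC, which did not pass the test, and 0.51 on CDAHFD. The other, Zmat3, differed by -0.24 ± 0.0686 (adjusted p = 0.044) and kept its call only without FPC control replicate 1, CDAHFD control replicate 1 or CDAHFD advanced replicate 3. Without any of the other 11 libraries its adjusted p was 0.053 to 0.12.

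In a list of 18 genes of AP-1 and the immediate early response, 15 rose on CDAHFD and 12 on FPC. The change differed at 2, both on the CDAHFD side, or 11.1% against 2.81% of all genes. Klf6, an injury-response factor, differed by -0.41 ± 0.0785 (adjusted p = 0.0038), and Ier5 by -0.41 ± 0.106 (0.025). The Ier5 call ended without FPC advanced replicate 3 (adjusted p = 0.073) or CDAHFD advanced replicate 2 (0.054).

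Of 20 clock genes 2 were called, Arntl and Bhlhe41, both on the CDAHFD side, or 10% against 2.81% of all genes. The 2 calls became 1 without FPC advanced replicate 3 or CDAHFD advanced replicates 2 or 3, 4 without CDAHFD advanced replicate 1, 5 with DESeq2 and 6 with peaks within 1 kb of the start alone. Arntl encodes BMAL1, a core activator of the clock. Its promoter peak (chr7:113207264-113207464) held 45.8, 36.1, 46.1 and 47.5 CPM in FPC controls, 52.9, 54.5 and 50.9 in FPC advanced, 23.7, 21.5, 23.3 and 27.8 in CDAHFD controls and 54.3, 67.6 and 56.5 CPM in CDAHFD advanced livers. Again the CDAHFD controls were lower than all other libraries, by 0.88 against the FPC controls. The promoter difference was -1.04 ± 0.133 (adjusted p = 0.00011). Bhlhe41, a repressor of the clock, differed by -0.81 ± 0.199 (adjusted p = 0.022) and lost the call without FPC advanced replicate 3 (adjusted p = 0.06), CDAHFD advanced replicate 2 (0.061) or CDAHFD advanced replicate 3 (0.051). The time of day at which livers were taken is not given in the sources used here, and its part was not tested.

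Periportal genes serve the metabolism of the zone around the portal vein. Of 17 such genes 3 were called on the CDAHFD side (17.6%, against 2.81% of all genes), 14 differences were negative, and the median was -0.21. Gls2, the liver glutaminase, held 290.4, 298, 285 and 327 CPM in FPC controls, 215, 192 and 205 in FPC advanced, 233, 232, 256 and 269.8 in CDAHFD controls and 224, 229 and 240.0 CPM in CDAHFD advanced livers. The FPC groups were far apart, and the CDAHFD groups overlapped. Gls2 differed by -0.45 ± 0.0924 (adjusted p = 0.006), Hpx, which encodes hemopexin, by -0.41 ± 0.0814 (0.0056), and Sds, serine dehydratase, by -0.73 ± 0.204 (0.037). The Sds call held without FPC control replicate 4, FPC advanced replicate 3, CDAHFD control replicate 1 or CDAHFD advanced replicate 2 and ended without any of the other 10 libraries (adjusted p = 0.051 to 0.1).

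Of 18 pericentral genes 1 was called, the glutamate transporter Slc1a2 (-0.71 ± 0.14, adjusted p = 0.0051), and 13 differences were negative. In 5 other metabolic lists calls were few, and a single call in a list of 15 to 25 genes is close to the 1.99% and 2.81% of all genes called on the FPC and CDAHFD sides. They comprised Tdo2 (-0.62 ± 0.146, adjusted p = 0.017) and Ttr (0.28 ± 0.0787, 0.037) of 23 secreted and core metabolic genes, Sord of 20 fructose and glycolysis genes (-0.38 ± 0.0754, 0.0053), Acadm of 23 fatty acid oxidation genes (-0.40 ± 0.0901, 0.012), Mthfd1 of 25 choline and methionine genes (-0.28 ± 0.0755, 0.034) and Aox3 of 19 xenobiotic genes (-0.35 ± 0.0954, 0.034). The choline and methionine list gave 0 to 3 calls when 1 library was left out. The Tdo2 call ended without FPC advanced replicate 2 (adjusted p = 0.054), and those of Ttr, Mthfd1 and Aox3 without any of 11, 5 and 8 of the 14 libraries (adjusted p up to 0.087, 0.096 and 0.091).

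No gene was called among 20 bile acid genes (17 negative differences, median -0.14), 20 hepatocyte transcription factors (17 negative, median -0.12), 17 lipid droplet genes, 17 lipoprotein genes, 25 inflammation genes or 15 female-biased genes. Some of these held genes with changes shared by both diets. Of 19 male-biased genes 17 fell on FPC and 17 on CDAHFD, and 1, Gna14, differed (0.86 ± 0.232, adjusted p = 0.032). The remaining lists of hepatocyte signalling held a single call each, for Pik3ca (insulin signalling), Mcm5 (cell cycle), Yap1 (YAP and TEAD genes) and, on the FPC side, Igf2bp2 (listed under growth hormone signalling). The calls of Gna14, Pik3ca, Mcm5 and Yap1 ended without any of 7, 9, 8 and 8 of the 14 libraries, with adjusted p up to 0.11, 0.11, 0.1 and 0.094.

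**Figure D5:**
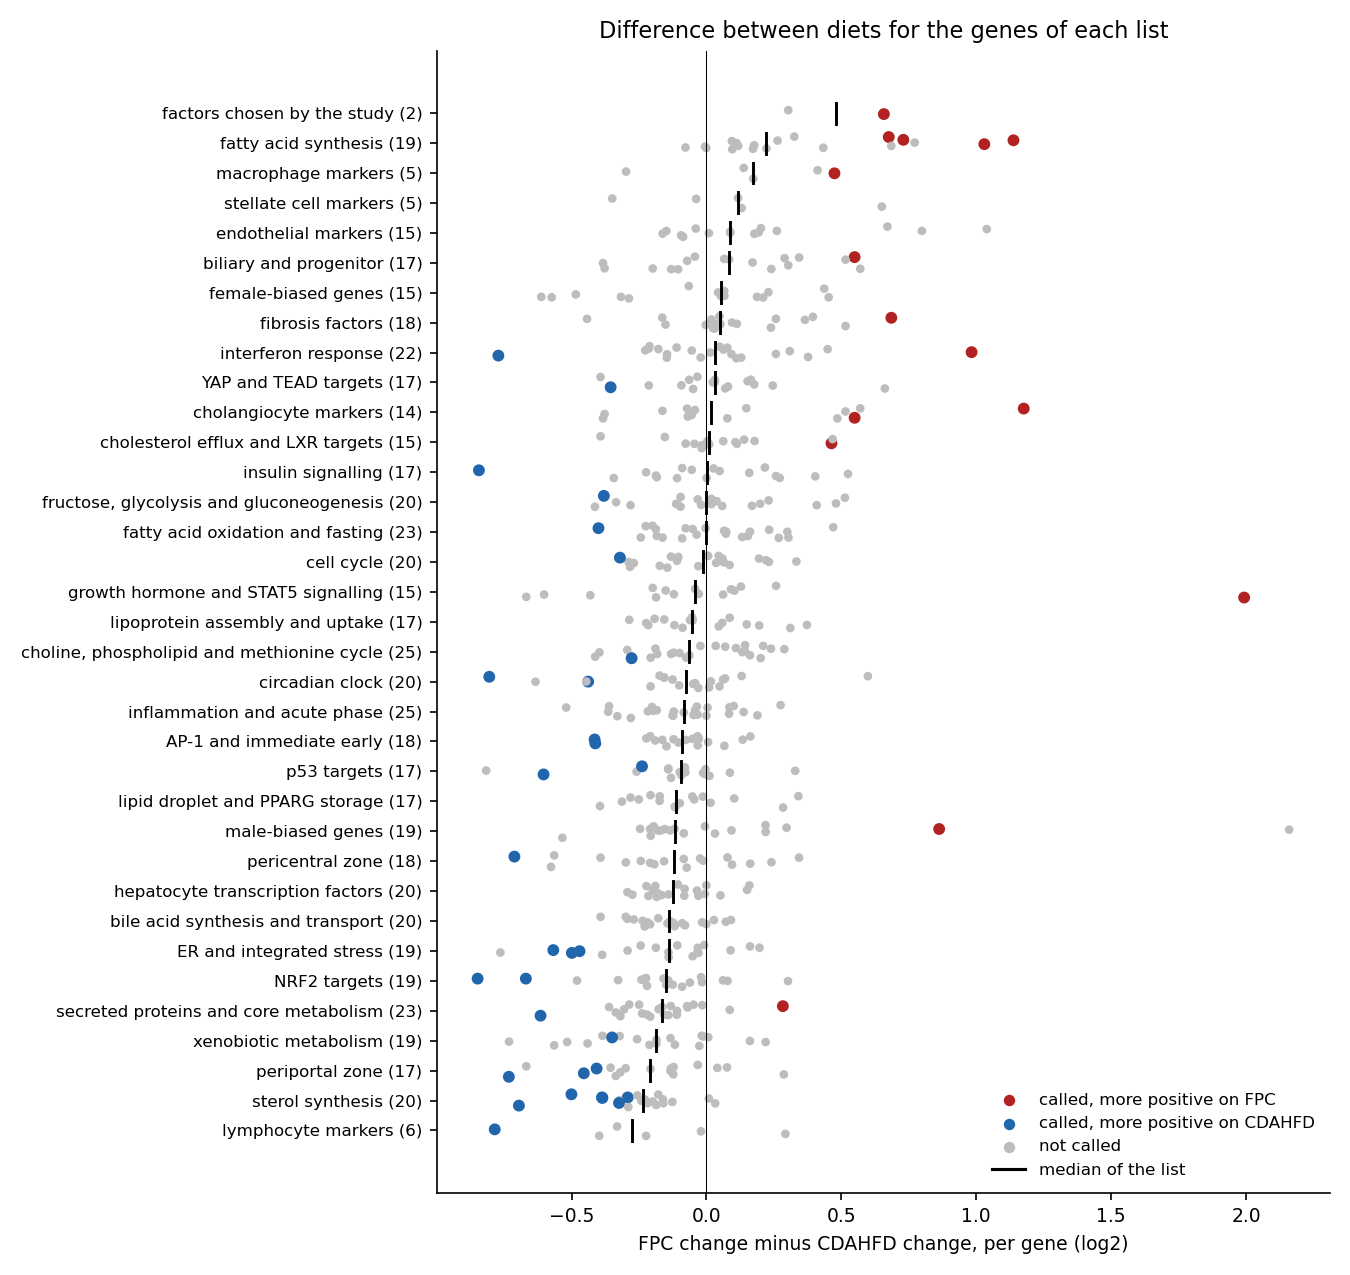
Difference between diets (FPC change minus CDAHFD change, log2) of each measured gene of 35 lists, with the number measured in brackets, called genes in red (FPC side) or blue (CDAHFD side) and the median of each list as a bar. Fatty acid synthesis lies to the right of 0 with a median of 0.22, and sterol synthesis to the left with -0.24.

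Genes on the FPC side outside metabolism included Glis2 and Mmp14. Glis2, a transcription factor that the study itself picked out on these libraries and which is therefore no independent evidence, held 71.7, 79.6, 82 and 78.6 CPM in FPC controls, 137, 164 and 162 in FPC advanced, 86, 84.6, 84 and 90.0 in CDAHFD controls and 101, 108 and 116 CPM in CDAHFD advanced livers. Both advanced groups exceeded all controls, the FPC group by more. Glis2 rose by 0.98 on FPC and 0.32 on CDAHFD, a difference of 0.66 ± 0.102 (adjusted p = 0.00068). Its promoter peak alone differed by 0.57 (adjusted p = 0.61), and with peaks within 1 kb of the start alone the gene was not called (adjusted p = 0.6). Elf3, the other factor picked by the study, differed by 0.30 (adjusted p = 0.13).

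Among 18 fibrosis genes the single call was Mmp14, a membrane-bound matrix protease (0.69 ± 0.164, adjusted p = 0.018), whose FPC controls lay below the CDAHFD controls by 0.55.

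Levels of markers of other liver cells are given beside these genes as values alone. The summed level of 14 measured cholangiocyte markers ran from 524 to 555 CPM in FPC controls, 680 to 803 in FPC advanced, 512 to 554 in CDAHFD controls and 610 to 665 CPM in CDAHFD advanced livers, and Cftr and Ggt1 had no peak. Of the 14, 7 differences were positive and 7 negative, with a median of 0.02. On the FPC side 2 were called (14.3%, against 1.99% of all genes). Among them was Tff2, which fell by 1.51 on CDAHFD and changed by -0.33 on FPC, which did not pass the test. Most of the list moved the other way: on FPC 10 of the 14 rose and 1 fell, and on CDAHFD 9 rose and 2 fell. For 5 of 20 stellate cell markers the ranges were 81.5 to 120, 124 to 140, 101 to 122 and 117 to 119 CPM in that order of groups, with none called. For 5 of 20 macrophage markers they were 71.4 to 84.7, 89.4 to 95.1, 83.6 to 85.6 and 79.7 to 85.9 CPM, with Mpeg1 called (0.47 ± 0.127, adjusted p = 0.031). Without FPC control replicates 2, 3 or 4, FPC advanced replicate 3, CDAHFD control replicate 3 or CDAHFD advanced replicates 1 or 3 the Mpeg1 call ended (adjusted p = 0.053 to 0.086). The part of other cell types in the difference at Glis2, Mmp14 and Mpeg1 was not tested.

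Endothelial markers (15 of 20 measured) summed to 465 to 500, 452 to 482, 527 to 574 and 481 to 512 CPM, with none called, and lymphocyte markers (6 of 20) to 473 to 499, 302 to 332, 457 to 510 and 353 to 376 CPM. The lymphocyte list held 1 call, Zap70, a kinase of T cells, which fell by 1.39 on FPC and by 0.61 on CDAHFD (difference -0.78 ± 0.106, adjusted p = 0.00017). Of 22 interferon genes Ifit2, an antiviral effector, differed by 0.98 ± 0.231 (adjusted p = 0.016) and rose on both diets, while Irf5 differed by -0.77 ± 0.195 (0.024) and fell on both. The Irf5 call ended without FPC control replicate 3 (adjusted p = 0.06), FPC advanced replicate 3 (0.073) or CDAHFD advanced replicate 1 (0.065).

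Among further genes with the largest differences on the CDAHFD side, Lgals3, which encodes galectin-3, rose by 1.48 on FPC and 2.31 on CDAHFD (difference -0.83 ± 0.156, adjusted p = 0.0035). It held 29.4, 27.6, 27.4 and 23.3 CPM in FPC controls, 70.2, 78.1 and 77.2 in FPC advanced, 22.9, 22.6, 15.5 and 17.1 in CDAHFD controls and 91.6, 108 and 90.3 CPM in CDAHFD advanced livers. No groups overlapped. Malat1, a long nuclear RNA gene, rose by 1.00 on CDAHFD, while its FPC change of 0.05 did not pass the test (difference -0.95 ± 0.16, adjusted p = 0.0013), and its control groups differed by 0.78. The remaining genes chosen for size on this side were Dpy19l3 (-1.12), Ly6c2 (-0.90), Sfi1 (-0.89), Gsta2 (-0.85), Slc43a1 (-0.81) and Rps12 (-0.81), and on the FPC side Dync2li1 (1.18), Tcp11 (1.10), D830013O20Rik (1.09), Fam198a (1.05) and Tfap2c (0.86). Dpy19l3, Slc43a1 and Dync2li1 were not called with peaks within 1 kb of the start alone (adjusted p = 0.95, 0.43 and 0.11), nor Tfap2c with all peaks at any distance (0.064).

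Single peaks on the CDAHFD side covered several forms of difference. A peak in the 3′ UTR beside Ttc36 (chr9:44804709-44804909) held 26.9, 19.6, 24.4 and 23.3 CPM in FPC controls, 3.04, 1.71 and 1.59 in FPC advanced, 14.6, 10.5, 15.2 and 11.2 in CDAHFD controls and 4.92, 7.01 and 5.69 CPM in CDAHFD advanced livers. It fell on both diets without overlap, further on FPC (difference -2.33 ± 0.295, adjusted p = 8.6e-05). An intron peak of the acute-phase gene Orm2 (chr4:63364632-63364832) moved in opposite directions, falling by 1.36 on FPC and rising by 1.46 on CDAHFD (difference -2.81 ± 0.498, adjusted p = 0.0038). An exon peak of Sirt1, a deacetylase of metabolic control, fell by 0.91 on FPC and rose by 0.98 on CDAHFD (difference -1.88 ± 0.358, adjusted p = 0.0069). Its level was low, and the FPC groups overlapped, with 2.665, 4.24, 4.37 and 8.09 CPM in controls and 3.035, 2.28 and 2.39 in advanced livers.

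An intron peak nearest 4930482G09Rik was the one named peak whose mild difference was near 0. It held 33.2, 31.8, 37.1 and 35.4 CPM in FPC controls, 4.38, 2.42 and 1.59 in FPC advanced, 33.9, 30.2, 26.6 and 32.9 in CDAHFD controls and 9.62, 8.34 and 8.39 CPM in CDAHFD advanced livers. Controls of both diets overlapped, and the advanced groups did not. The advanced difference was -1.84 ± 0.251 (adjusted p = 0.00024), and the mild one was 0.04 (adjusted p = 0.94).

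Called sites were unevenly spread over repeats and chromosomes. Peaks on satellite repeats were called on the CDAHFD side in 13 of 28 cases (46.4%), with a median of -1.02, and 8 of them form the run chr2:98662621-98667357. Satellite copies are near-identical, so these counts are uncertain, and leaving out 1 library gave 5 to 15 calls. The 13 became 6, 5, 5, 6 and 5 without FPC advanced replicates 2 or 3, CDAHFD control replicate 3 and CDAHFD advanced replicates 1 or 2, and 6 without FPC control replicate 2. At Sfi1, a gene with many copies, 6 of 9 peaks were called (chr11:3184590-3196882). Other runs on the CDAHFD side lay near Adhfe1 (6 of 18 peaks), near Ddt, Derl3, Gstt2 and Gstt3 (5 of 29) and near Aox1 and Aox3 (4 of 19), and on the FPC side near D830013O20Rik (4 of 6).

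The median difference over all peaks of a chromosome ran from -0.09 (chromosome 10) to 0.10 (chromosome 19), leaving aside 6 peaks on Y. Promoter peaks had a median of 0.07 and were called in 0.969% (FPC side) and 1.1% (CDAHFD side), and intron peaks had a median of -0.05 and were called in 0.531% and 0.852%. Base composition moved with the difference too. In 11911 RefSeq promoter windows of 300 bases that a peak overlaps, the median difference was 0.04 in GC class 1 of 4. That class had the lowest content (29.7% to 55.3%). The median was 0.08 in both class 2 and class 3, and 0.11 in class 4 (68.3% to 88.7%). Calls went from 18 windows on the FPC side and 46 on the CDAHFD side in class 1 to 51 and 30 in class 4. The part of base composition in the calls was not tested, and a GC correction over all peaks needs a genome, not used here.

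Of these windows, 151 held a peak called on the FPC side (133 genes) and 168 one on the CDAHFD side (151 genes). Of 25 motifs searched on both strands, the 4 given here were picked after their shares were seen. The KLF and SP motif GGGCGGGG was in 35.3% of all windows, 51.0% of FPC-side windows and 26.8% of CDAHFD-side windows, which also differed in median GC content (61.7%, 64.0% and 60.7%). The ETS motif CCGGAAGT was in 9.04%, 8.61% and 2.98%. The sterol response element was in 1.12%, 0.662% and 2.98%, the last being 5 windows (Hmgcs1, Hsp90b1, Atp2b1, Ggt6 and Zfyve21). The ER stress response element was in 0.134% of all windows (16), in none on the FPC side and in 1.79% on the CDAHFD side, which are the Hspa5, Hsp90b1 and Derl3 windows printed above. In Hsp90b1 its matches begin 212 and 107 bases before the gene start and that of the sterol element 54 bases before, without overlap. A match describes letters and is not a measured binding site.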

How the data were processed

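ATAC-seq was measured in 22 libraries of bead-bound liver nuclei, sequenced in read pairs per the labels' protocols. The build was mm10 and the tools DESeq2, HOMER, SAMtools and BWA (0.7.5a-r405), per the submitters' processing notes. The deposited un-normalized table holds 1 value per peak of 200 bases and library in steps of 0.5, which was taken as an expected count (47.8% of values end in 0.5). No label states the reason for the steps. A normalized table that the authors deposited beside it holds a signal and was not used in any test. Peak annotation and distance to the nearest start are the authors' own, per the file headers.

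Counts were rounded, and edgeR 4.0.16 was run under R 4.3.3: TMM scaling (factors 0.984 to 1.02), 1 quasi-likelihood model with 6 groups fitted to all 22 libraries (common dispersion 0.0114 for peaks and 0.00471 for genes), and the contrast of the FPC advanced change minus the CDAHFD advanced change. Calls used a Benjamini-Hochberg adjusted p under 0.05 over all peaks or all genes. Gene sums took peaks within 50 kb of the nearest start (56777 peaks, 82.5%). Values in the text are CPM on TMM-scaled totals, and per-library changes used log2 CPM with a prior count of 2. Each SE is the size of the log2 difference over the root of its F value. The calculation was tested on simulated data.

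The members, the 35 gene lists (640 genes, 559 with a peak) and the tests were chosen with earlier results of these data known. Named peaks were the 10 with the largest difference per direction among called peaks with above-median abundance, a start within 50 kb and no overlap of library changes, and the 5 per direction with the largest opposite changes, 1 per gene. Named genes were the 10 with the largest called difference per direction among genes with above-median abundance and, in each list, at most 4 with the lowest p. Further promoter peaks, the intron peak of Sqle, the site upstream of Scd1 and the ER stress response element were chosen after their values were seen.

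Alternatives were other scalings, DESeq2 1.42.0 (Wald test), a CPM filter of 2, the 14 libraries alone, thinning to the smallest total, counts cut instead of rounded, gene sums within 1 kb or at any distance, each library left out, and, added after seeing the data, no satellite peaks. Motifs in peaks need a genome, not used here, so RefSeq promoter windows were searched instead. No genome-wide GC correction was made. Some called genes of the lists are not reported here.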

Additional observations from a re-analysis of the deposited data

Results flagged for a closer look

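The change from control to advanced differed between diets at 475 peaks on the FPC side and 626 on the CDAHFD side, and near 312 and 441 genes (edgeR quasi-likelihood test of the difference itself). At 77 peaks accessibility rose on FPC and fell on CDAHFD, and at 58 the reverse. The mild change differed at 1269 peaks on the FPC side and 1122 on the CDAHFD side, and shares its controls with the advanced one.

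In 100 groups of 4 control libraries, for the 30 peaks and the 20 genes named for the size of their differences, 5 had a library whose distance from the nearest other exceeded Dixon's 95% critical value, and chance gives about 1 in 20. At the Slc30a10 promoter peak FPC control replicate 4 held 17.2 CPM against 13.5 to 14.1 in the other replicates. At the Cmah peak CDAHFD control replicate 4 held 31.9 CPM against 38 to 38.4. At the Tcp11 peak FPC control replicate 3 held 11.9 CPM against 18.7 to 19.1. At the Gsta2 peak FPC control replicate 1 held 22.8 CPM against 17.3 to 18. Near Zap70 FPC control replicate 1 held 115 CPM against 121 in each of the others (rounded).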

How the results depend on the processing

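With the 14 control and advanced libraries alone, 223 peaks were called on the FPC side and 280 on the CDAHFD side, 45 and 32 with opposite changes (rising on FPC, rising on CDAHFD), 168 and 254 genes, 984 and 571 peaks between the advanced groups and 861 and 255 between the control groups (higher on FPC, higher on CDAHFD). With every library thinned to the smallest total these numbers were 187 and 240, 37 and 32, 148 and 271, 606 and 379, and 918 and 255, so depth limits how many differences can be called. Leaving out 1 library gave 214 to 603 and 338 to 748 peaks, 39 to 79 and 33 to 68 with opposite changes, 179 to 334 and 266 to 486 genes, 423 to 1735 and 307 to 1286 peaks between advanced groups, and 711 to 1455 and 227 to 589 between control groups. The cause was not tested. Under the other scalings, DESeq2, the CPM filter, counts cut to whole numbers, other gene windows and no satellite peaks the counts stayed within 1.5 times. The balance between the sides moved, with 646 peaks on the FPC side and 636 on the CDAHFD side under cyclic loess. The DESeq2 Wald test gave 533 and 898. None of the 3 scalings moved the median of all peaks by over 0.1 or the share of calls on the FPC side by over 10 percentage points. Of the 99 named peaks and genes, 55 were called in every alternative, 232 of their 2286 alternative values were not called, and none changed sign. Among genes the text names, calls that ended with cyclic loess were those of Nr1h2, Mthfd1, Zmat3, Aox3, Gna14, Yap1, Mcm5 and Hmgcs1. The call of Ttr ended with DESeq2 size factors, Nr1h2 with the DESeq2 Wald test and Pik3ca with counts cut to whole numbers. With the 14 libraries alone the ended calls were those of Hmgcs1, Nr1h2, Fasn, Mthfd1, Hsp90b1, Zmat3, Yap1, Ttr, Aox3, Pik3ca, Mcm5 and Mpeg1. With thinning they were those of Idi1, Nr1h2, Fasn, Mthfd1, Zmat3, Yap1, Irf5, Ttr, Gna14, Pik3ca, Sds, Mcm5, Mpeg1 and Tff2. With peaks within 1 kb they were those of Fasn, Sqle, Gsta1, Ier5, Ifit2, Glis2, Mthfd1, Zmat3, Aox3, Gna14, Yap1, Mcm5, Dync2li1, Dpy19l3 and Slc43a1, and with peaks at any distance those of Klf6, Tfap2c and Zmat3. No paired analysis was possible because the replicate numbers follow accession order and pair no libraries.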
